A study of Bos taurus with 31 samples.

Results

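The milk fat globule membrane genes described here are BTN1A1, XDH, MFGE8, MUC1, MUC15, CD36, PLIN2, PLIN3 and FABP3. They were taken by gene name as a list of proteins of the membrane and the lipid droplet, and all 9 were found among the 14084 rows of the count table, once each. All 9 passed the filter on low counts. RNA was measured by sequencing of mammary epithelial organoids, which are clumps of epithelium left after enzymatic digestion of gland biopsies from dairy cows. The 15 virgin libraries came from heifers biopsied at 14 months of age. The 16 lactating libraries came from the same cows 40 to 60 days into lactation, with 1 cow (that of L495) sampled only then. No treatment, strain or genotype is given in the labels. Libraries are written as a letter for the stage and the animal's number, so V509 and L509 came from the same cow at either stage. The lactating samples were always the later ones, so stage cannot be told apart from age, calving history or time of sampling.

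Milk fat leaves the mammary epithelial cell in an unusual way. Triglyceride droplets form in the endoplasmic reticulum, take on a coat of perilipins, move to the apical surface and bud out wrapped in plasma membrane. In mice, butyrophilin (BTN1A1) in that membrane and xanthine oxidoreductase (XDH) beneath it are needed for regulated secretion of the droplets. MFGE8, the mucins MUC1 and MUC15 and CD36 are further abundant proteins of the envelope, and FABP3 carries fatty acids through the cytosol.

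With each counted locus taken once, library totals ran from 12477568 to 38794104 counts in virgin and from 17637505 to 45478555 in lactating samples. The 8 genes of a milk protein list (4 caseins, LALBA, PAEP, GLYCAM1 and HSTN) took 0.244% to 51.6% of the counts in lactating libraries and 0.0281% to 0.682% in virgin ones. L538 and L478 had the lowest casein levels among lactating libraries and V509 the highest among virgin ones, above that of L538. The number of genes called and the lactating spans are given with and without L538 and L478. Fold changes of BTN1A1, MUC1, MUC15 and FABP3 are given with and without V509. Epithelial markers were present in every library: the summed level of 8 luminal markers was 1797 to 7511 counts per 1e6 (CPM) in virgin and 1285 to 3160 CPM in lactating libraries. In bulk samples like these, fewer cells of a type and less RNA per cell cannot be told apart.

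At an adjusted p under 0.05 (Benjamini-Hochberg, from edgeR's quasi-likelihood test) all 9 genes were higher in lactation, against 24.2% of the 13180 tested rows called higher and 30.9% called lower. The sizes of the change differed widely. The highest log2 fold change was that of FABP3 at 8.08 and the lowest that of PLIN3 at 0.73. Of the 9, 8 were higher in all 15 cows with both stages, and PLIN3 was higher in 13 of 15. The share of all rows higher in every cow was not worked out. With L478 and L538 left out, 9 of 9 were again called higher. Over 40 alternative fits, that one included, 1389 to 3666 of all rows were called higher. The groups did not overlap at all for 2 genes, XDH and MUC1, against 1.15% of all rows with every lactating library above every virgin one and 0.781% with every one below.

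**Figure D1:**
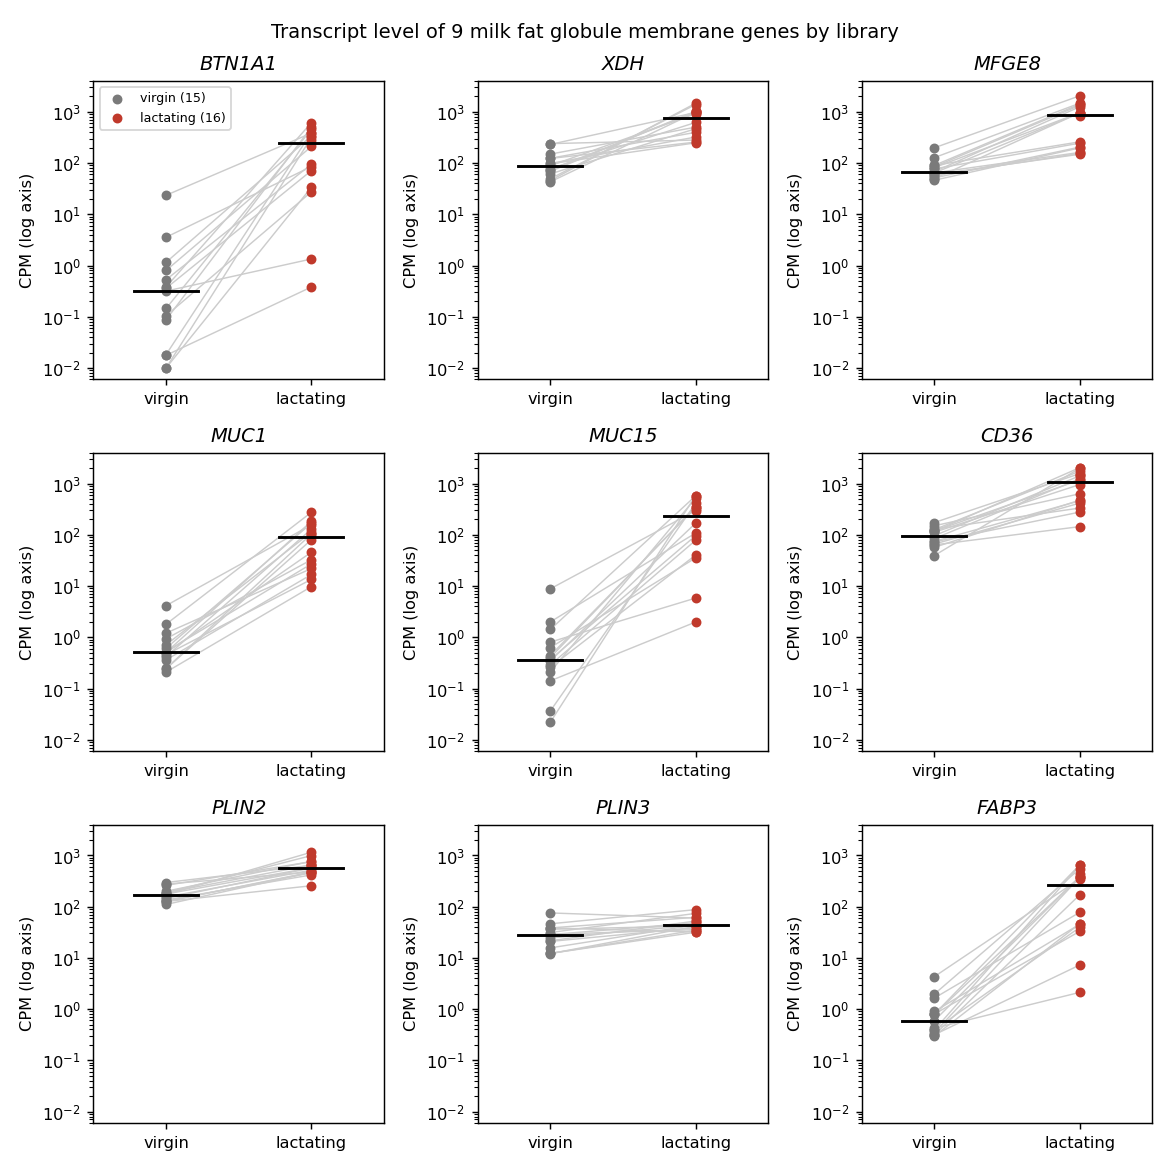
Level of each gene in every library, in CPM on a log axis; grey points are the 15 virgin and red points the 16 lactating libraries, grey lines join the libraries of a cow, black bars are group medians, and counts of 0 are drawn at 0.01 CPM. The groups are apart for XDH and MUC1, overlap widely for PLIN3, and for BTN1A1 and MUC15 overlap through L538 and L478, the only lactating libraries of these genes within the virgin range.

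BTN1A1 encodes butyrophilin, the receptor-like protein of the membrane to which XDH binds. Its level in virgin libraries ran from 0 (V468 and V581) through a median of 0.317 to 23.6 CPM (V509). A count of 0 allows up to 0.106 CPM in V468 and 0.0776 CPM in V581. In lactating libraries it ran from 0.381 (L538) through 249.9 to 617 CPM (L479). L538 (14 reads) and L478 (92 reads) lay within the virgin range, and all other lactating libraries were at 27.5 CPM or more. V509 (1863 reads) and V490 (3.57 CPM) were above both, and 6 virgin libraries in all were above L538. The log2 fold change was 6.79 ± 1.05 (SE; edgeR adjusted p = 2.54e-06). It was 8.78 without V509, and 8.38 with the animal as a block (edgeR adjusted p = 1.23e-06; 1.70e-14 to 8.52e-05 over all alternatives). Within animals the difference in log2 CPM was lowest in the cow of L478 (1.92) and that of L538 (2.64), with a median of 7.96.

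XDH, the purine-oxidising enzyme that also anchors the droplet to the membrane, was already expressed before pregnancy. Virgin libraries ran from 43.0 (V507) through 88.7 to 239.8 CPM (V478), and lactating ones from 248.6 (L531) through 772 to 1473 CPM (L479). Every lactating library was above every virgin library, but the gap between V478 and L531 was small. The log2 fold change was 2.82 ± 0.30 (edgeR adjusted p = 4.33e-09). In the cow of V478 and L478 the log2 CPM differed by 0.23 between the stages, from 239.8 CPM in V478 to 281.8 CPM in L478.

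MFGE8 (lactadherin), which binds phosphatidylserine and integrins, went from 46.3 (V490), 68.2 and 199.0 CPM (V479) as lowest, median and highest virgin values to 149.0 (L531), 886.9 and 2059 CPM (L479) in lactation. Only V479 reached into the lactating range, and 4 lactating libraries lay at or below its level. The log2 fold change was 3.29 ± 0.38 (edgeR adjusted p = 2.29e-08), and the lowest difference within an animal was 1.32 (the cows of L538 and L531).

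The membrane mucins are long glycosylated proteins that line the globule surface. MUC1 ran from 0.209 (V531) through 0.509 to 4.16 CPM (V509) in virgin and from 9.78 (L531) through 92.4 to 277 CPM (L479) in lactating libraries, with no overlap. Its log2 fold change was 6.73 ± 0.57 (edgeR adjusted p = 6.56e-11), and 7.26 without V509. MUC15 ran from 0.0219 (V507) through 0.368 to 8.84 CPM (V509) in virgin and from 1.99 (L538) through 233 to 585 CPM (L507) in lactating libraries. V509 again exceeded L538 and L478 (5.84 CPM), V490 (1.996 CPM) was just above L538, and every other lactating library was at 35.6 CPM or more. The log2 fold change of MUC15 was 7.77 ± 0.84 (edgeR adjusted p = 6.58e-09), and 8.90 without V509. In the cow of the low-casein library L538 the log2 CPM differed by 4.74 for MUC1 and by 3.40 for MUC15, against medians over animals of 6.39 and 7.85.

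CD36 and FABP3 handle fatty acids, the former at the cell surface and the latter in the cytosol. CD36 ran from 39.6 (V479) through 96.8 to 174 CPM (V502) in virgin and from 145.0 (L538) through 1072 to 2055 CPM (L507) in lactating libraries. Only L538 lay within the virgin range. The log2 fold change was 3.37 ± 0.32 (edgeR adjusted p = 6.16e-10). Its counts were identical to those of 2 further rows known only by identifier, so the value belongs to a locus shared with them. FABP3 ran from 0.299 (V504) through 0.599 to 4.31 CPM (V509) in virgin and from 2.12 (L538) through 259.9 to 656 CPM (L502) in lactating libraries. V509 exceeded L538 and no other lactating library, and L478 followed at 7.27 CPM. Its log2 fold change was 8.08 ± 0.75 (edgeR adjusted p = 3.43e-10). It was 8.56 without V509, and 7.38 with the animal as a block (edgeR adjusted p = 1.53e-07; 1.09e-51 to 2.34e-07 over all alternatives).

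The droplet coat proteins changed least. PLIN2 (adipophilin), the main perilipin of mammary droplets, ran from 110.7 (V478) through 172 to 297 CPM (V502) in virgin and from 256 (L581) through 575 to 1158 CPM (L504) in lactating libraries. L581 alone lay within the virgin range. The log2 fold change was 1.78 ± 0.18 (edgeR adjusted p = 9.51e-10), higher in 15 of 15 animals. PLIN3 (TIP47), a perilipin that cycles between cytosol and droplets, ran from 12.1 (V615) through 28.5 to 75.5 CPM (V479) in virgin and from 31.7 (L531) through 43.7 to 87.5 CPM (L504) in lactating libraries, so the groups overlapped widely. Its log2 fold change was 0.73 ± 0.21 (edgeR adjusted p = 0.00483). That call was lost without TMM factors (0.28, edgeR adjusted p = 0.196; 1.43e-04 to 0.196 over all alternatives), a setting that also moved the median of all rows from -0.08 to -0.56. In the cows of L479 and L595 the log2 CPM of PLIN3 differed by -0.33 and -0.27, lower in lactation. The authors' deposited table gave PLIN3 a log2 fold change of -0.74, coded virgin minus lactating, with an adjusted p of 1, and the other 8 genes adjusted p-values of 9.42e-07 or less.

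**Figure D2:**
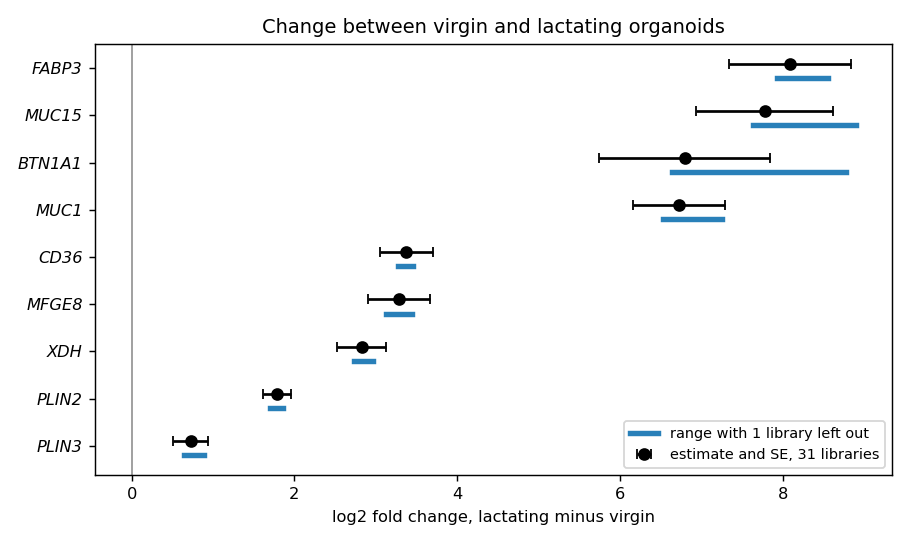
Log2 fold change of each gene, lactating minus virgin, with its standard error over 31 libraries (black) and the range of estimates when each of the 31 libraries was left out in turn (blue). FABP3, MUC15, BTN1A1 and MUC1 lie between 6.73 and 8.08 and the other 5 genes between 0.73 and 3.37; the estimate for BTN1A1 reaches 8.78 when V509 is left out.

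Levels of different genes were set side by side only per length, in the reads per kilobase and 1e6 reads (RPKM) of the authors' deposited table. In lactating libraries the median deposited RPKM was 55.8 for MFGE8, 42.5 for BTN1A1, 39.4 for PLIN2, 19.0 for MUC1 and 17.0 for MUC15. It was 6.96 for XDH, 6.09 for CD36, 4.07 for FABP3 and 2.05 for PLIN3. Ranges overlapped between all neighbours in this order, for instance 9.38 to 130.2 for MFGE8 and 0.0660 to 105 for BTN1A1. In virgin libraries the highest median was that of PLIN2 (11.8), followed by MFGE8 (4.29) and PLIN3 (1.31). The lengths behind these values limit the order. Worked back from each row's counts and RPKM, they equalled RefSeq's whole gene span, introns included, to within 5% for 53.9% of the 12539 rows with such a span. The locus of FABP3 was 8.18 times its RefSeq span, that of CD36 1.81 times and that of XDH 1.75 times, and the other 6 lay between 0.801 and 1.10 times. The places of FABP3, CD36 and XDH in the order depend on those longer loci. The lengths of the other 6, near whole gene spans, ran from 4616 bases (MUC1) to 20548 bases (PLIN3). The order of all 9 genes thus depends on lengths that count introns. ZCCHC17, which neighbours FABP3, had its own row, at 8.28 to 13.4 CPM in virgin and 9.93 to 20.7 CPM in lactating libraries.

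Caseins are the main milk proteins, and their level differed greatly between lactating libraries. To keep milk protein reads from depressing all other genes, levels in the casein comparison are in milk-free CPM, per 1e6 reads outside the 8 milk protein genes. Summed CSN1S1, CSN2, CSN1S2 and CSN3 stood at 1667 in L538 and 4127 in L478. In L581, L531, L504, L615 and L490 the sum was 27142 to 70761, and in the other 9 libraries 201885 to 653929. Gaps of more than 1 on the log2 scale separated these ranges, so no correlation was computed across all 16. Among virgin libraries V509 had 2893, between L538 and L478.

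How widely the genes spread over the lactating libraries depended on L538 and L478. Between the lowest and the highest lactating library, summed caseins differed 392.3-fold, BTN1A1 1627-fold, FABP3 311-fold and MUC15 293-fold. The single caseins, lowest in L538 and highest in L479, spanned unequally. CSN3 ran from 1172 to 71174 milk-free CPM, CSN1S1 from 198 to 212672, CSN2 from 245 to 297725 and CSN1S2 from 52.0 to 72358. The span of the sum was therefore narrower than those of CSN1S1, CSN2 and CSN1S2. MUC1 differed 28.9-fold, CD36 14.1-fold, MFGE8 14.1-fold and XDH 6.04-fold. PLIN2 differed 4.54-fold and PLIN3 2.81-fold. Without L538 the span of BTN1A1 was 459.7-fold, that of MUC15 99.2-fold and that of FABP3 90.4-fold. Without L538 and L478 it was 22.8-fold for BTN1A1, 19.9-fold for FABP3 and 16.6-fold for MUC15, against 24.1-fold for the caseins and 28.9-fold for MUC1, so MUC1 then had the widest span. CD36 spanned 7.33-fold without L538, and the other spans did not move. In the top 9 libraries the span was 3.86-fold for FABP3, 3.45-fold for MUC1, 3.44-fold for MUC15 and 2.92-fold for BTN1A1, against 3.24-fold for the caseins, and 2.09-fold to 2.54-fold for the other 5 genes. The spans are a description with no test, and the libraries to leave out here were chosen after seeing the data.

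The genes also differed in where along the order they were high. BTN1A1 was at 0.424 milk-free CPM in L538, its lowest, followed by L478 with 92 reads, and was at 30.2 to 106 in the next 5 libraries and at 236 to 689 in the top 9. FABP3 showed the same steps, at 2.36, 8.12, 36.8 to 86.3 and 190.1 to 734. MFGE8 did not separate the lower libraries: it was at 179 in L538, 173 in L478 and 163 to 289 in the next 5, and at 906 to 2299.9 in the top 9. XDH in L538 (285) and L478 (315) was within the range of the next 5 libraries (272 to 558), and MUC1 was likewise at 15.1 and 24.6 against 10.7 to 51.1. PLIN2, at 529 and 523 in the 2 lowest-casein libraries, lay within both the middle range (285 to 1294) and the top range (466 to 1102), and so did PLIN3, at 38.5 and 48.5 against 34.7 to 97.8 and 35.6 to 81.8. The highest PLIN2 and PLIN3 values of the 16 were both in L504, a library of the middle casein range.

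**Figure D3:**
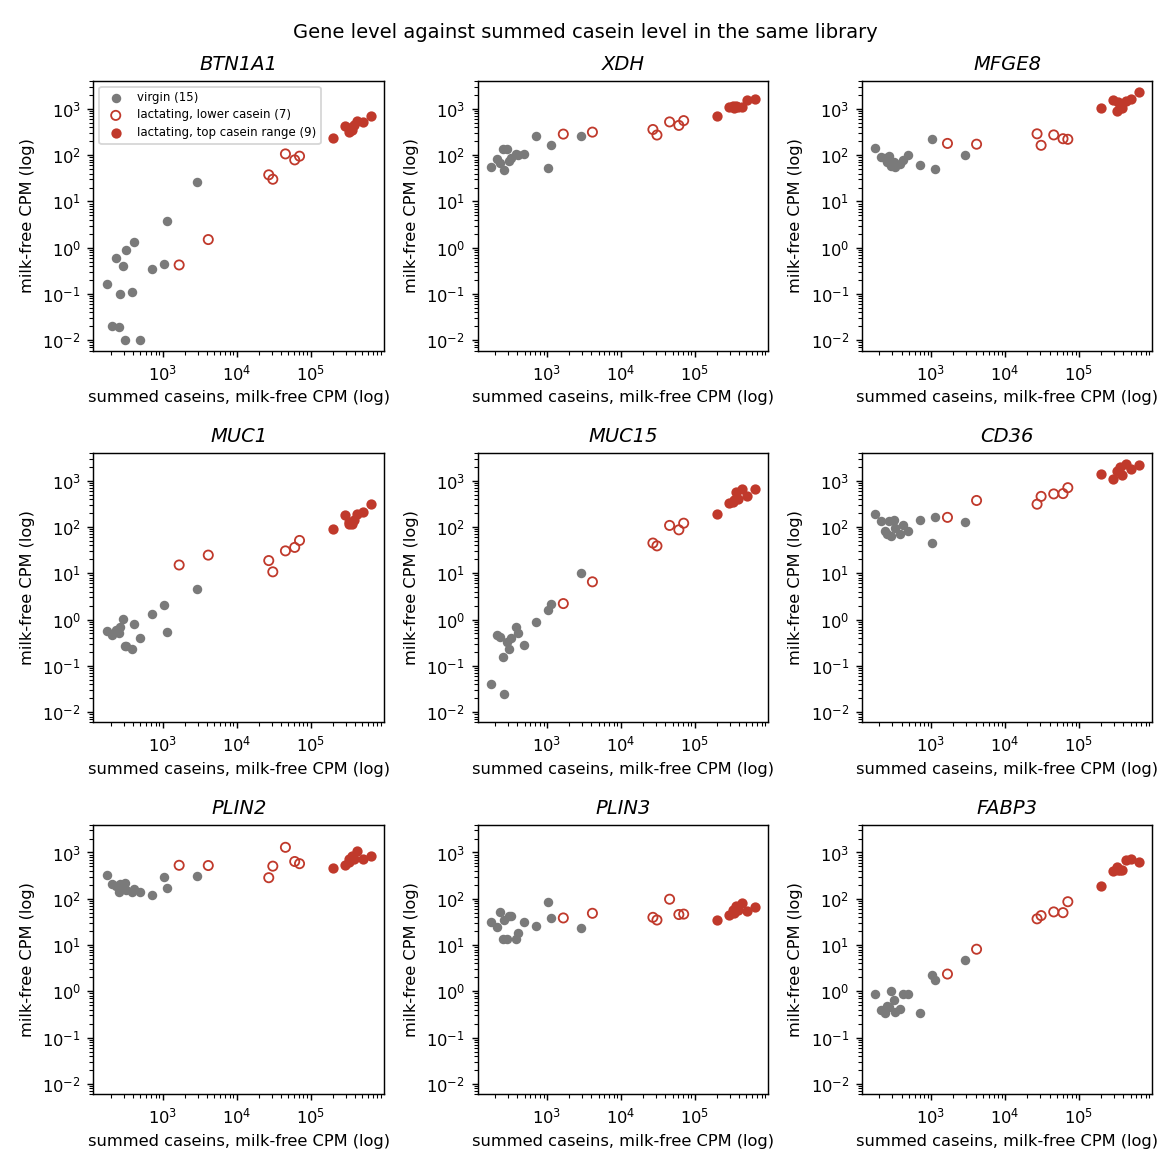
Level of each gene against summed caseins in the same library, both in milk-free CPM on log axes; grey points are the 15 virgin libraries, open red circles the 7 lactating libraries of lower casein and filled red points the 9 of the top casein range, with counts of 0 drawn at 0.01. BTN1A1, MUC15 and FABP3 climb over the casein range of the lactating libraries, MFGE8 is at 163 to 289 in the 7 open circles and at 906 or more in the filled points, and PLIN2 and PLIN3 stay in similar ranges in all lactating libraries.

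Set against the sum of the 4 caseins in the same library, FABP3 and MUC15 kept the narrowest range of the 9 genes. Per 1000 casein reads there were 0.822 (L615) to 1.97 (L478) reads of FABP3 and 0.907 (L502) to 2.37 (L504) reads of MUC15 over all 16 lactating libraries. BTN1A1 reads numbered 0.959 or more per 1000 casein reads in the top 9 libraries, against 0.254 in L538 and 0.363 in L478. For XDH the figure went the other way, from 2.52 to 3.78 in the top 9 to 76.3 in L478 and 171 in L538. PLIN2 went from 1.295 to 2.56 in the top 9 to 127 and 317 in the same libraries. Relative to summed casein, L538 and L478 thus had few reads of butyrophilin and many of XDH, MFGE8, CD36, MUC1 and the perilipins. The make-up of that sum differed between libraries. CSN3 was 1172 of 1667 milk-free CPM in L538 and 2841 of 4127 in L478, against 71174 of 653929 in L479. Ratios to single caseins were not computed, so these ratios and the order of the genes hold for the sum only.

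**Figure D4:**
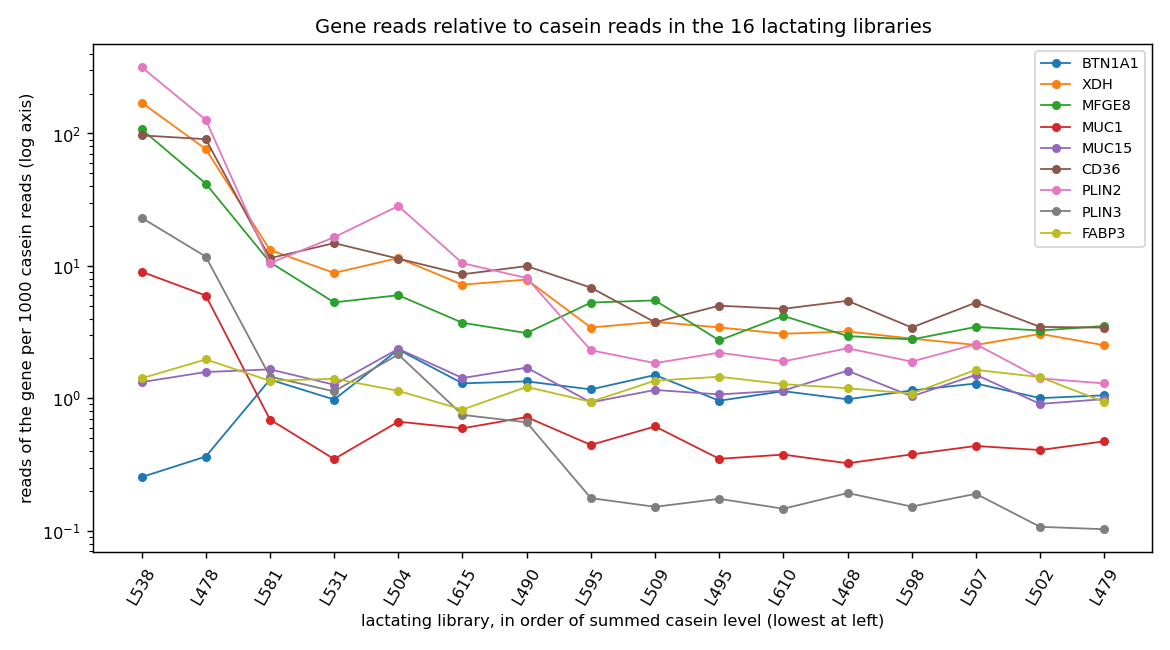
Reads of each gene per 1000 reads of the summed caseins (log axis) in the 16 lactating libraries, ordered by casein level with the lowest at the left. Most of that sum is CSN3 in L538 and L478. FABP3 and MUC15 stay between 0.822 and 2.37 throughout, BTN1A1 drops to 0.254 in L538, and the other 6 genes are highest in L538 (PLIN2 at 317).

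Within the 9 libraries of the top casein range, each of the 9 genes had a positive correlation of its log2 milk-free CPM with log2 summed casein. None was called after Benjamini-Hochberg adjustment over 13172 rows of a two-sided exact permutation test, and 0% of rows were called in either direction by Pearson or Spearman. At an unadjusted p under 0.05 by Pearson, 9 of the 9 genes were higher with casein, against 6.96% of all rows higher and 4% lower. By Spearman 4 of the 9 had an unadjusted p under 0.05. The share of all rows by Spearman was not worked out, so that count has no background to be read against. The smallest p this test could give is 2.76e-06. XDH had r = 0.929 (exact p = 0.00137, adjusted p = 0.261) and rho = 0.633 (exact p = 0.0760, adjusted p = 0.573). BTN1A1 had r = 0.905 (exact p = 0.00159, adjusted p = 0.279) and rho = 0.867 (exact p = 0.00451, adjusted p = 0.450). FABP3 had r = 0.875 (exact p = 0.00312, adjusted p = 0.288) and rho = 0.783 (exact p = 0.0172, adjusted p = 0.477). For MUC1 r was 0.864 and for MUC15 0.856, for PLIN3 0.727, PLIN2 0.720, MFGE8 0.666 and CD36 0.665. The median r of the 9 genes was 0.856, against 0.0108 for all rows.

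Without L595 and L479, which had the lowest and highest casein of the 9, r stayed near its value for FABP3 (0.862, exact p = 0.0151). For the others it was lower: 0.718 for XDH (exact p = 0.0853), 0.647 for BTN1A1 (exact p = 0.114), 0.303 for MFGE8 (exact p = 0.506) and 0.481 to 0.588 for MUC1, MUC15, CD36, PLIN2 and PLIN3. With 7 libraries and a narrower casein range, 8 of the 9 genes then had an exact p above 0.05. The share of all rows at that level was not worked out for the 7 libraries. Over the 9 libraries the slope of log2 level on log2 casein was 1.06 for FABP3, 1.00 for MUC15, 0.97 for MUC1 and 0.86 for BTN1A1, and 0.49 to 0.69 for the other 5.

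CD36 and PLIN2 are also made outside the epithelium, by endothelium, fat cells and macrophages, and markers of these cells moved with stage too. All 10 endothelial markers were higher in lactation, at a summed 38.2 to 761 CPM in virgin and 259 to 1705 CPM in lactating libraries. Of 10 macrophage markers 9 were higher and 0 lower, at 15.5 to 74.2 against 121 to 577 CPM. Of 10 adipocyte markers 7 were in the table, of which 4 were higher and 1 lower, at 12.2 to 205 against 64.6 to 1815 CPM, and none of these lists had a marker at 0 in every library of a stage. ADIPOQ (adiponectin), which defines fat cells, was at 0.985 ± 0.721 CPM (SD, n = 15) in virgin and 1.52 ± 0.642 CPM (SD, n = 16) in lactating libraries, and PLIN1 was at 2.36 ± 1.14 and 1.04 ± 0.263 CPM. The high sum of the adipocyte list came with FABP4 (498 ± 351 CPM, SD, n = 16) and LPL (255 ± 229 CPM, SD, n = 16). Over the 9 top-casein libraries the summed endothelial level had r = 0.0234 with casein (exact p = 0.953), the macrophage sum r = 0.760 (exact p = 0.0175) and the adipocyte sum r = 0.675 (exact p = 0.0466), with adjusted p-values over 6 marker lists of 0.953, 0.105 and 0.140. All 6 lymphocyte markers were higher too, at 5.04 to 50.9 against 35.2 to 85.9 CPM, whereas of 8 basal markers 1 was higher and 3 lower and of 8 luminal markers 2 were higher and 5 lower. In L478 and L538 the endothelial sums, 289.3 and 289.0 milk-free CPM, were below the 940.2 to 1899 of the 9. The adipocyte sums of 141 and 71.8 were below the 752 to 2009 of the 9, and the macrophage sums of 163 and 139.97 below their 215 to 638. The basal sums of 1533 and 1416 were below 1738 to 2838, the luminal sums of 3529.7 and 3325 were above 1431 to 2364, and the lymphocyte sums were 39.3 and 46.6 against 42.6 to 79.6. In the 5 libraries of the middle casein range, endothelial sums of 428 to 744 and adipocyte sums of 219 to 543 were also below those of the 9. Their macrophage sums (133 to 435) and basal sums (1309 to 1996) spanned the values of L478 and L538. Their luminal sums ran from 1588 to 2988. Low sums of these other cell types were thus not particular to L478 and L538. The part of other cell types in the values of the 9 genes was not tested.

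Other proteins found in globule membranes mostly moved the same way. Of 18 tested genes of that list, 16 were higher, 1 was lower and 1 was not called, with a median log2 fold change of 1.45 against -0.08 for all rows. Of all tested rows 24.2% were called higher and 30.9% lower. LPO (lactoperoxidase) was higher by 7.56 ± 0.77 (edgeR adjusted p = 1.92e-09) in 13 of 15 animals. The pattern recognition receptors TLR2 and CD14 rose by 3.52 ± 0.26 and 3.46 ± 0.28, and ACSL1, an acyl-CoA synthetase, by 2.03 ± 0.17. CD14 is also a member of the macrophage marker list above. ANXA2, a membrane-binding annexin, fell by 0.75 (log2, SE 0.13, edgeR adjusted p = 2.03e-05).

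Genes of droplet coating and growth were divided. Of 7 tested, 4 were higher and 3 lower with a median of 0.39, and 0 were higher and 3 lower without TMM factors. Of all tested rows 24.2% were called higher and 30.9% lower, and without TMM factors 1389 rows were higher and 7751 lower. These figures for all rows also stand beside the counts of lipases, relatives and regulators given below. RAB18, a droplet-associated GTPase, was higher by 0.46 ± 0.13, and at -0.09 without TMM factors. HILPDA, an inhibitor of droplet lipolysis, changed by -2.14 ± 0.40 in log2 terms (edgeR adjusted p = 4.30e-05). It was lower in 10 of 15 animals and higher in 5. PLIN1, the perilipin of fat cells, changed by -1.18 ± 0.20 and FITM2, which helps droplets bud from the endoplasmic reticulum, by -0.64 ± 0.18.

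Lipases and their cofactors were higher in 4 of 6 cases, lower in 0 and not called in 2, with a median of 0.66. Without TMM factors 1 was higher and 1 lower. MGLL (monoglyceride lipase) rose by 1.56 ± 0.25 and ABHD5, the activator of adipose triglyceride lipase, by 0.76 ± 0.20. LIPA (lysosomal acid lipase) rose by 0.57 ± 0.17. LIPE (hormone-sensitive lipase) rose by 1.07 ± 0.41 (edgeR adjusted p = 0.0247) at 1.05 ± 0.865 CPM in lactation, a call lost with the animal as a block (edgeR adjusted p = 0.0617), without TMM factors (0.183), without the virgin libraries with a lettered title (0.0963) and without L507 (0.0687).

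Relatives of the 9 genes did not share their changes evenly. Of 8 tested, 6 were higher and 2 lower with a median of 0.76, against 2 higher and 3 lower without TMM factors. FABP4 and FABP5, fatty acid carriers of the FABP3 family, rose by 4.38 ± 0.65 and 1.55 ± 0.25, and SCARB1, a scavenger receptor related to CD36, by 0.68 ± 0.20. AOX1, an aldehyde oxidase related to XDH, fell by 1.01 (SE 0.29, edgeR adjusted p = 0.00402). Among regulators of fat metabolism 8 of 12 were higher, 0 were lower and 4 were not called, with a median of 0.96. Without TMM factors 4 were higher and 2 lower. The nuclear receptors PPARD, PPARA and NR1H3 rose by 1.48 ± 0.16, 1.10 ± 0.16 and 1.42 ± 0.26, and INSIG1, which restrains sterol synthesis, by 2.57 ± 0.44.

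Likeness between profiles was measured as the root mean square difference of mean-centred log2 CPM over the 31 libraries, where lower is more alike. Among pairs of the 9 genes the closest were PLIN2 with PLIN3 (0.69), XDH with CD36 (0.71), MFGE8 with CD36 (0.75) and MUC15 with FABP3 (0.99). Outside the list, HHIPL2 was the nearest gene to BTN1A1 (1.604) and to MUC15 (1.22), and was among the nearest 3 of MUC1 (1.12) and FABP3 (1.01). The other near genes of BTN1A1 and MUC15 were ATP13A4, of a family of cation-transporting ATPases, and CRISP3, a secreted cysteine-rich protein. FABP3 was nearest to TMC5 (0.90) and had LPO as its last of 3 (1.16). The near genes of MUC1 also included SLC1A2 (1.19), a glutamate transporter. XDH was nearest to MYRFL (0.56), TLR2 (0.61) and VIPR1 (0.61). MFGE8 was nearest to SLC31A2 (0.56), AGPAT1 (0.57), an acyltransferase of phosphatidic acid synthesis, and RETSAT (0.63), retinol saturase. CD36 was nearest to SPTLC3 (0.54), a serine palmitoyltransferase subunit, ECHDC1 and SCNN1G. PLIN2 was nearest to the protease FURIN (0.40), SLC46A3 and SEC14L1, and PLIN3 to PEX11G (0.37), GABARAP and SIRPA.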

How the data were processed

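Libraries were strand-specific and poly-A selected, per the labels' protocols. The authors deposited read counts per gene, unnormalized whole numbers, and a second table of RPKM with adjusted p-values and log2 fold changes of their own. The submitters' processing notes name build UMD3.1, edgeR, featureCounts 1.5.2 with Subread, StringTie 1.3.2, SAMtools and HISAT2 2.0, and their roles and settings are not given in these sources. No coordinates are printed, since the RefSeq table used for names and spans is of another build (ARS-UCD2.0).

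Counts were analysed with edgeR 4.0.16 in R 4.3.3: filterByExpr (minimum count 10, total 15; 13180 of 14084 rows kept), TMM factors, robust glmQLFit and glmQLFTest with stage as the only term. The main fit thus did not use the pairing by animal, and estimates with the animal as a block are given below. CPM is per 1e6 of the TMM-scaled library, log2 CPM has a prior count of 2, and an SE is the fold change divided by the square root of F. For the casein relation, TMM factors and totals leave out 8 milk protein genes, and clusters are separated by a log2 gap over 1, tested from 6 libraries. Intervals of counts of 0 use 3 reads and cover counting error only. Alternatives were DESeq2 1.42.0, its size factors, no TMM factors, other filters, each locus once, left-out libraries and the animal block.

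The 9 genes and all lists were chosen with earlier results of these data known. Named from each list are the 4 genes of smallest p and any called gene against the list's direction, and for each member its 3 nearest genes, of which 1 is not reported here. The scripts were tested on simulated data. All pairs of libraries differed beyond sampling noise (lowest chi-square per degree of freedom 36.7 in virgin and 47.8 in lactating pairs). The replicate number is the animal, per the series design, so it pairs the samples: after removal of group means, libraries of an animal correlated at 0.0702 to 0.392, above 0.1 in 12 of 15 pairs, and at a mean of -0.016 with other animals.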

Additional observations from a re-analysis of the deposited data

How the results depend on the processing

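Over 40 alternatives, 31 of them leaving out a library each, 8 of the 9 genes stayed higher in lactation at an adjusted p under 0.05, and PLIN3 did so in all but the fit without TMM factors. With 1 library left out, 3044 to 3637 rows were called higher and 3914 to 4307 lower. Without TMM factors 1389 rows were higher and 7751 lower, with the median of all rows at -0.56, and RAB18 changed sign to -0.0902; the log2 fold changes of the 9 genes were then 0.28 (PLIN3) to 7.35 (FABP3). With the animal as a replicate block (30 libraries, without L495) all 9 genes were called higher, and the log2 fold changes of BTN1A1 and FABP3 were 8.38 and 7.38. With that block they were 7.95 for MUC15, 6.57 for MUC1, 3.04 for CD36, 2.82 for MFGE8 and 2.74 for XDH. For PLIN2 and PLIN3 they were 1.75 and 0.85. Among the listed genes named, LIPE lost its call with the block. GABARAP, named as a neighbour of PLIN3, lost its call in 12 alternatives that left out libraries and 2 others. Against casein, 0 of the 9 genes and 0 of all rows were called in any of 13 alternatives. Of these, 9 left out 1 of the 9 libraries and 1 left out L595 and L479. With fewer libraries the smallest p that the exact test can give is higher. Over 13172 rows a call was then possible only if several rows reached that p together, so the 0 of these fits says little. Leaving out 1 of the 9 libraries put r at 0.828 to 0.956 for BTN1A1, 0.866 to 0.955 for XDH, 0.761 to 0.948 for FABP3 and 0.402 to 0.772 for MFGE8. The cause of these shifts was not tested. Depth limits BTN1A1 in the virgin libraries with no reads of it.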
